A study of Mus musculus with 15 samples.

Results

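Mouse chromosome 16 (Chr16) was covered by 1469 probes of a 2-colour Agilent array for comparative genomic hybridisation (aCGH), out of 42404 non-control probes in all and 40726 on the autosomes. The probes were taken as every non-control probe whose position on the array's design began with Chr16, read in order of position. The arrays compared DNA of 8 tissues from 3 mice, of which 5 were hepatocellular carcinomas (HCC) and 3 were unaffected livers, with DNA of sex-mismatched wild-type normal liver as the reference. All 3 mice carried Alb-Cre, which expresses Cre recombinase from the albumin promoter in liver epithelium, and floxed alleles of the spindle checkpoint gene Mad2 (f/f) in a mixed strain background that included C57BL/6. Mouse 3151, a female aged 16.4 months, was p53(f/+) and gave HCC 3151-1, HCC 3151-2 and liver 3151. Mouse 3760, a male aged 13.8 months, was p53(f/f) and gave HCC 3760-2 and liver 3760. Mouse 4033, a male aged 13.9 months, was p53(f/f) and gave HCC 4033-1, HCC 4033-2 and liver 4033. The unaffected livers therefore carried the same floxed alleles and Cre as the tumours beside them, and p53 genotype, sex and mouse 3151 cannot be told apart. Other tissues of the series were not analysed here.

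The spindle assembly checkpoint holds cells before anaphase until every kinetochore is attached, and Mad2 is one of its core proteins, so cells without it can missegregate whole chromosomes. In aCGH, a tissue with extra copies of a chromosome in all or some of its cells gives a raised ratio at the probes along that chromosome. Mouse Chr16 is acrocentric and its distal end holds many orthologues of the genes on the human chromosome that is trisomic in Down syndrome, while a more proximal stretch holds orthologues of genes deleted in DiGeorge syndrome.

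The Chr16 probes ran from position 3593026 to position 98181194, a span of 94.6 Mb with a median spacing of 24.2 kb between starts. The largest gap was 3.00 Mb, between starts 81686091 and 84690833. Positions are those of the array's design, whose genome build is not named in the sources used here. Of the 1469 probes, 1230 carried a gene or transcript name and 239 were named by position only. The 671 distinct names included 425 current symbols and 82 older symbols, and 164 had no match. Probes were 45 to 60 bases long with a median GC content of 36.7%.

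The sequences of 6 Chr16 probes with no name are shown because the unaffected livers themselves differed at them by at least 1 on the log2 scale. Each is written as on the array, whose strand is not stated, and the capitals mark the longest run made only of A and T.
chr16:87543833-87543892: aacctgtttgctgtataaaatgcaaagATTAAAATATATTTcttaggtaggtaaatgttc
chr16:89187426-89187485: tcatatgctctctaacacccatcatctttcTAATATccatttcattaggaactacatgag
chr16:80025549-80025608: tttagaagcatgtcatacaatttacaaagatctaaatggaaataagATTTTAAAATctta
chr16:36310112-36310168: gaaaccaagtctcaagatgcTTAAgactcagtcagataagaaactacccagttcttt
chr16:39099975-39100034: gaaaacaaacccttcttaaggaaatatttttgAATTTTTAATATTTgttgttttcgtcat
chr16:45530236-45530295: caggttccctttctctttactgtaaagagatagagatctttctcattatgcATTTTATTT
The longest of these runs had 14 bases, as in the probes at 87543833 and 39099975. A run of at least 14 such bases was held by 27 of the 1469 Chr16 probes (1.84%), and a run of at least 9, as in the probe at 45530236, by 323. The run in the probe at 36310112 had 4 bases, a length that 99.0% of the Chr16 probes held. The values at these 6 oligos are given with the liver-variable probes.

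Median signal over background was 3.78 to 6.88 in the green channel and 3.72 to 7.95 in the red over the 15 arrays, and 0.191% to 2.31% of spots were not well above background. HCC 3760-2 was measured on 1 array only and the other 7 tissues on a pair with the dyes exchanged. No Chr16 value was missing in any tissue. Liver 3151 stood apart from the other livers: its 2 dye orientations differed by at least 1 at 83 Chr16 probes (5.69%), with the forward array lower at 79 of them, against 2 probes in liver 3760 and 1 in liver 4033. Over all autosomal probes the share in liver 3151 was 4.83%. Such gaps were also found in HCC 3151-2 (53 probes, the forward array lower at 49) and HCC 4033-2 (48, lower at all 48). HCC 3151-1 had 30 (lower at 28) and HCC 4033-1 had 9 (lower at 3). In that order the Chr16 shares were 3.62%, 3.29%, 2.05% and 0.613%, near the 3.62%, 3.02%, 2.13% and 0.850% of all autosomal probes. The Chr16 level, the probe counts and the list medians are therefore also given with liver 3151 from its dye-swap array alone.

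Chr16 was higher in the HCCs than in the unaffected livers on average, with a graded level from tumour to tumour. Taken as the mean log2 ratio of its probes against the autosomal median, the level of Chr16 reached 0.38 in HCC 3151-1 and 0.29 in HCC 3760-2. HCC 3151-2 followed at 0.21, and the tumours of mouse 4033 were lowest, HCC 4033-1 at 0.061 and HCC 4033-2 at 0.022. The unaffected livers had levels of -0.017, -0.0088 and -0.012 in mice 3151, 3760 and 4033. All 5 HCCs lay above all 3 livers, but HCC 4033-2 and HCC 4033-1 did so by less than 0.1, and with the arrays centred on the mode of the autosomal log2 ratios only 3 of the 5 did.

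The HCCs averaged 0.19 ± 0.15 (SD, n = 5) and the livers -0.012 ± 0.0040 (SD, n = 3), a difference of 0.20 with a standard error of 0.12. The difference was not called by limma fitted over the 19 autosomes (adjusted p = 0.361). The exact two-sided permutation test over the 56 ways of splitting the 8 tissues gave p = 0.0357 (n = 8), and an adjusted p of 0.204 over the 19 autosomes. Of the 19 autosomes, 1 was called (5.26%), and 3 had every HCC above every liver (15.8%), Chr16 being one of these. No source says that the tissues of 1 mouse are independent, and p-values measure the spread between these tissues.

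Centred on the mode, HCC 3151-1 had a Chr16 level of 0.46, HCC 3760-2 one of 0.32 and HCC 3151-2 one of 0.11. HCC 4033-2 was then at -0.035 and HCC 4033-1 at -0.19, below every liver. The mode lay 0.25 above the median in HCC 4033-1 and 0.11 above it in HCC 3151-2, and less than 0.1 from it in the other 6 tissues. Liver 3151 stood at 0.032 on its dye-swap array alone, which put 4 of the 5 HCCs above all livers. The direction in the 2 tumours of mouse 4033 thus depends on the centring, and in HCC 4033-2 also on 1 array.

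**Figure D1:**
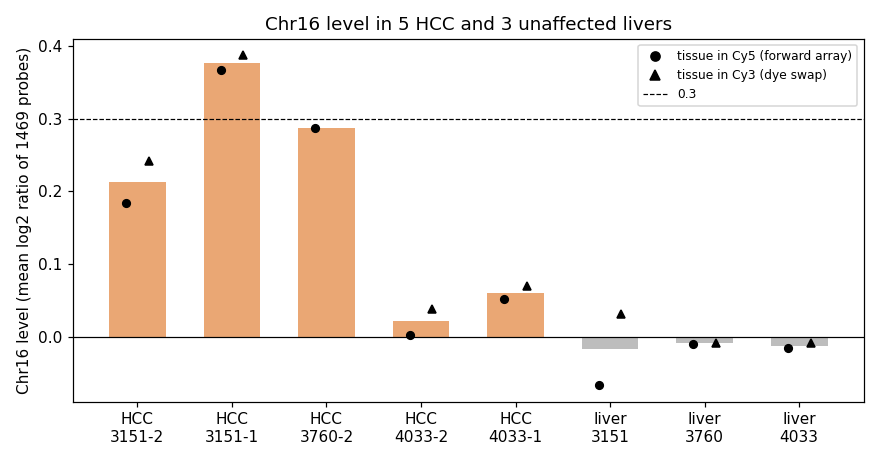
Mean log2 ratio of the 1469 Chr16 probes against the autosomal median (y axis) in each of the 8 tissues (x axis), as bars with the forward array as a circle and the dye swap as a triangle, and the threshold of 0.3 as a dashed line. HCC 3151-1 is highest at 0.38, the 3 unaffected livers lie between -0.017 and -0.0088, and the tumours of mouse 4033 lie close to the livers.

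The 2 dye orientations gave nearly the same level in most tissues. HCC 3151-1 was at 0.37 forward and 0.39 swapped, and HCC 3151-2 at 0.18 and 0.24. HCC 4033-1 was at 0.052 and 0.070, and HCC 4033-2 at 0.0033 and 0.039. Liver 3151 had the widest gap of the livers, at -0.066 forward and 0.032 swapped, and the forward array of HCC 4033-2 lay below the latter value. Probe by probe, the 2 arrays of a tissue correlated weakly over Chr16, with r from -0.216 in liver 3151 to 0.389 in liver 4033. In the HCCs with 2 arrays r was -0.055 to 0.211, so values of single genes on few probes are imprecise.

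On a linear scale HCC 3151-1 had a Chr16 ratio of 1.30, HCC 3760-2 of 1.22 and HCC 3151-2 of 1.16. It was 1.04 in HCC 4033-1 and 1.02 in HCC 4033-2. A copy gained in every cell of a diploid tissue would give a log2 ratio of 0.585, which no tumour reached. In the same livers the X chromosome, which differs by 1 copy from the sex-mismatched reference, was at 0.88 in mouse 3151, -0.87 in mouse 3760 and -0.92 in mouse 4033. A smaller share of cells with the gain and a smaller gain in all cells cannot be told apart in a bulk tissue.

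At the threshold of 0.3 that the study used for a whole-chromosome event, Chr16 was gained in 1 of the 5 HCCs, HCC 3151-1, and in 0 of the 3 livers. Fisher's exact test, two-sided, gave p = 1 with n = 8, and the smallest p this design allows is 0.0179. HCC 3760-2, at 0.29, fell just short of the threshold. At a threshold of 0.2, 3 HCCs passed (Fisher's exact p = 0.196), and at 0.5 none did. The count thus rests on where the threshold lies among values of 0.21, 0.29 and 0.38.

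Compared with the liver of its own mouse, HCC 3151-1 was 0.39 higher, HCC 3760-2 0.30, HCC 3151-2 0.23, HCC 4033-1 0.072 and HCC 4033-2 0.033. The mean of these 5 differences was 0.205 ± 0.151 (SD, n = 5). The p53(f/+) tumours averaged 0.295 ± 0.116 (SD, n = 2) and the p53(f/f) tumours 0.123 ± 0.144 (SD, n = 3), and their ranges overlapped, since HCC 3760-2 lay above HCC 3151-2. Within mice the difference of HCC minus liver was 0.311 in mouse 3151, 0.296 in mouse 3760 and 0.053 in mouse 4033. Within the hybridisation slides that held both groups it was 0.296, 0.072 and 0.038, and within the 2 scan days 0.184 and 0.220. The slide values 0.296 and 0.072 repeat the own-liver differences of HCC 3760-2 and HCC 4033-1. The value 0.038 set HCC 4033-2 against liver 3151, of another mouse, sex and p53 genotype.

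The shift was spread over most Chr16 probes. Log2 ratios above 0 were found at 96.9% of the Chr16 probes of HCC 3151-1, 93.9% of those of HCC 3760-2 and 86.4% of those of HCC 3151-2. It was 76.9% in HCC 4033-1 and 61.7% in HCC 4033-2. The livers had 49.2%, 49.7% and 50.6% in mice 3151, 3760 and 4033, and the probes of the other autosomes had 47.2% to 51.3% over the 8 tissues. Every HCC thus had more Chr16 probes above 0 than any liver with the arrays centred on the autosomal median. The shares with mode centring, where the levels of HCC 4033-1 and HCC 4033-2 fell below every liver, are not given here.

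Among the 19 autosomes, Chr16 had rank 2 for HCC 3151-1, rank 3 for HCC 3760-2, rank 6 for HCC 3151-2 and rank 10 for both tumours of mouse 4033. Its mean difference between HCC and liver had rank 3, after Chr15 and Chr18. Subtracting the level of Chr15 from that of Chr16 left -0.29 for HCC 3151-2, 0.051 for HCC 3151-1 and -0.077 for HCC 3760-2. It left -0.70 for HCC 4033-2 and -0.50 for HCC 4033-1, against -0.016, -0.091 and -0.026 in the livers of mice 3151, 3760 and 4033. Chr16 was thus well below Chr15 in the tumours of mouse 4033 and within 0.1 of it in HCC 3151-1 and HCC 3760-2.

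Of 3 contrasts of Chr16 with other autosomes, none passed. Chr16 minus Chr15 differed between HCC and liver by -0.26 (exact permutation test, p = 0.25, adjusted p = 0.375, n = 8). Chr16 minus Chr18 differed by -0.061 (exact permutation test, p = 0.804, adjusted p = 0.804, n = 8). Chr16 minus the median of the other autosomes differed by 0.187 (exact permutation test, p = 0.0893, adjusted p = 0.268, n = 8).

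**Figure D2:**
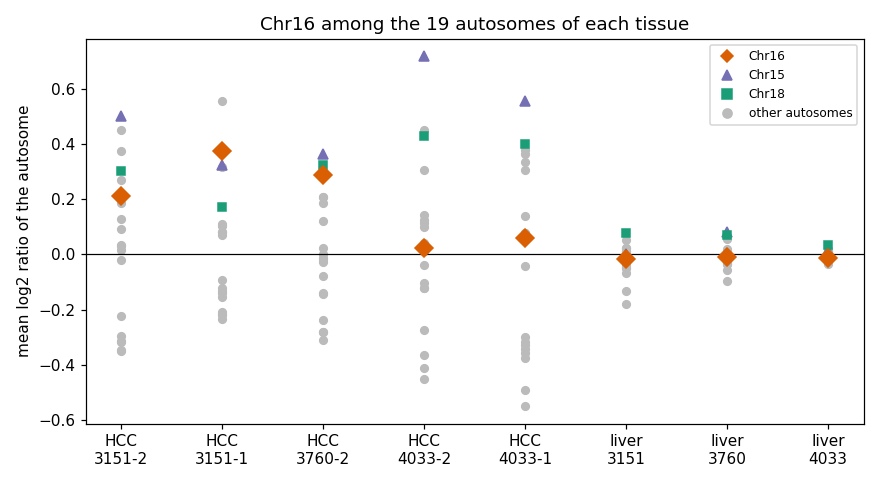
Mean log2 ratio of each autosome (y axis) in each of the 8 tissues (x axis), with Chr16, Chr15 and Chr18 marked among the 19 autosomes. Chr16 stands near the top in HCC 3151-1 and HCC 3760-2 and among the other autosomes in the tumours of mouse 4033 and in the livers.

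The level was nearly even along the chromosome in 4 of the 5 HCCs. Over 10 windows of 10 Mb, holding 45 to 270 probes each, the window means ran from 0.35 to 0.41 in HCC 3151-1 and from 0.26 to 0.32 in HCC 3760-2. They ran from 0.036 to 0.090 in HCC 4033-1 and from -0.028 to 0.060 in HCC 4033-2. HCC 3151-2 had the widest run of the HCCs, from 0.14 to 0.29, and the livers lay between -0.063 and 0.027. The window difference of HCC minus liver was 0.18 to 0.22, and limma called none of the 10 windows (adjusted p from 0.467 to 0.490, unadjusted from 0.074 to 0.153), against 3.98% of the 251 autosomal windows. Every HCC lay above every liver in 6 of the 10 Chr16 windows, against 10.8% of the autosomal windows, and 0 of the 10 were higher at an unadjusted p under 0.05, against 8.37%. These counts are for median centring. With mode centring, which lowers HCC 4033-1 by 0.25, that tumour would lie below every liver in each Chr16 window.

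The distal 316 probes, from Stch (Hspa13) to the end of the chromosome, cover the part with many orthologues of the human genes trisomic in Down syndrome. HCC 3151-1 had a distal mean of 0.36, HCC 3760-2 of 0.28 and HCC 3151-2 of 0.22, against 0.38, 0.29 and 0.21 over the 1153 proximal probes. In HCC 4033-1 the distal mean was 0.051 and the proximal 0.063, and in HCC 4033-2 0.0089 and 0.025. Distal minus proximal differed between HCC and liver by 0.0079 (exact permutation test, p = 0.464, n = 8), and by -0.0028 with the boundary at the middle probe (exact p = 0.768). The distal and proximal parts stood within 0.02 of each other in each HCC.

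**Figure D3:**
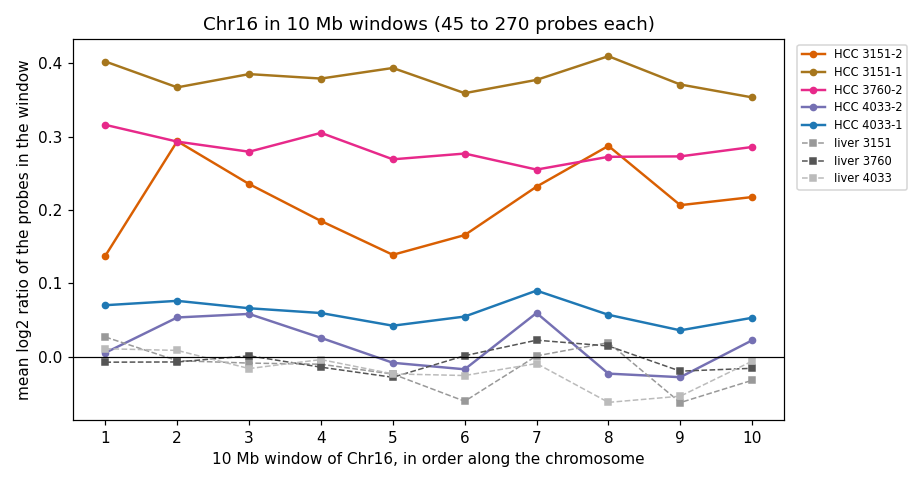
Mean log2 ratio of the Chr16 probes (y axis) in consecutive windows of 10 Mb along the chromosome (x axis), 1 line per tissue. HCC 3151-1 stays between 0.35 and 0.41 and HCC 3151-2 varies between 0.14 and 0.29, while the livers stay between -0.063 and 0.027.

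Segmentation by optimal partitioning found 33 breakpoints on Chr16 over the 8 tissues, 19 of them in HCCs. In breakpoints per probe Chr16 had rank 6 of the 19 autosomes. Chr17 had the most, with 82 over 1737 probes, and Chr10 the fewest, with 16 over 2028 probes. On Chr16, HCC 4033-1 had 14, liver 4033 12, HCC 3151-2 5 and liver 3760 2, and the other 4 tissues had none. Of the segments, 14 held 5 to 7 probes with means of -0.62 to -0.30, and without their lowest probe the means were -0.20 to 0.050. Leaving out the 14 probes that varied between livers left 9 breakpoints, 5 in HCC 3151-2 and 4 in liver 4033. In liver 4033 the segment of 5 probes from Cryzl1 to Itsn1 was still called, at -0.338. A raised segment of 6 probes from Krtap13 to Krtap16-1 was called there too, at 0.269. Its last probe, Krtap16-1, was at 0.98 in liver 4033 and was not among the 14 left out. The mean of the segment without Krtap16-1 is not given here. Leaving out the 14 probes was chosen after the data were seen.

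The 5 breakpoints of HCC 3151-2 divided Chr16 into 6 segments. With a penalty factor of 4, with the forward arrays alone and with normexp background correction 2 breakpoints were found in this tumour: a raised segment ending between positions 22142541 and 22938042, with a mean of 0.291 to 0.324, was called, and everything distal of it was 1 segment, so that the short segment ending at Polq was not called. The most proximal 175 probes had a mean of 0.147, and the next 281 probes, from BC006659 to Igf2bp2, had 0.324. The forward and dye-swap arrays gave 0.317 and 0.331 for the stretch to Igf2bp2. The 285 probes from Sfrs10 (a splicing factor) on had 0.182, the 27 probes from Stfa2l1 to Polq had 0.413, and the 233 probes from Stxbp5l on had 0.119.

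The stretch from Stfa2l1 to Polq lay between positions 36161274 and 37060648, with a forward mean of 0.383 and a swapped mean of 0.442. Polq, at its end, encodes DNA polymerase theta, which joins broken DNA ends. The last segment, 468 probes from Senp7 on, had a mean of 0.225, but the 2 arrays differed there, at 0.163 and 0.286. Over the same 6 stretches HCC 3151-1, from the same mouse, was at 0.36 to 0.44 and liver 3151 at -0.035 to 0.024. The stretches ending at Igf2bp2 and Polq in HCC 3151-2 thus came close to the level of HCC 3151-1 there, and the others lay below it.

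At single probes no difference between HCC and liver was called. Limma called 0 of the 1469 Chr16 probes at an adjusted p under 0.05, and 0 of all 40726 autosomal probes (0%), with a smallest adjusted p on Chr16 of 0.351. At an unadjusted p under 0.05, 175 Chr16 probes (11.9%) were higher in HCC and 0 lower, against 5.34% and 2.06% of the autosomal probes. Every HCC lay above every liver at 341 Chr16 probes (23.2%), against 5.3% of the autosomal probes, 64.8% on Chr15 and 37.7% on Chr18. With mode centring the count fell to 10 probes (0.681%), under the 4.3% of the autosomes, and with liver 3151 from its dye-swap array alone it was 327 (22.4%) against 4.88%.

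The probe differences of HCC minus liver ran from -0.21 to 0.79 with a median of 0.20, against -0.0011 over all autosomal probes. On average 1423 of the 1469 probes (96.9%) were higher in HCC, against 49.8% of the autosomal probes. In no Chr16 probe did every HCC lie below every liver, against 3.22% of the autosomal probes. These probes share a chromosome and a set of arrays, and so are not independent of each other.

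The genes of Chr16 were read in 6 lists, and each list shifted by about as much as Chr16 as a whole. The lists hold DNA copy measurements, not expression, and none of their probes was called. Their medians stayed positive with each of the centrings and with normexp background correction, at 0.15 to 0.17 with mode centring, and were 0.17 to 0.22 with liver 3151 from its dye-swap array alone, lowest for the hepatocyte genes. Mode centring also moved the median difference of all autosomal probes to -0.055. The gene values and the shares of list probes with every HCC above every liver, given below, are for median centring. With mode centring that share was 0.681% of all Chr16 probes (10 probes), under the 4.3% of the autosomes. It was not counted per list.

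The first list held orthologues of the human chromosome trisomic in Down syndrome, of which 64 of 66 were found with 132 probes. Their median difference was 0.22, with 125 probes higher in HCC on average and 41 (31.1%) with every HCC above every liver, against 23.2% of all Chr16 probes and 5.3% of the autosomal probes. Ifnar1, a subunit of the type I interferon receptor, had log2 ratios of 0.44 for HCC 3151-2, 0.20 for HCC 3151-1, 0.16 for HCC 3760-2, 0.16 for HCC 4033-2 and 0.19 for HCC 4033-1, and of -0.06, -0.04 and -0.04 in the livers of mice 3151, 3760 and 4033. The 5 HCCs lay above the 3 livers with median centring, a difference of 0.28. With mode centring, which lowers HCC 4033-1 by 0.25, that tumour would not lie above all livers.

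App, which encodes the amyloid precursor protein, had a difference of 0.21, with HCC 4033-2 at -0.10, below all 3 livers. Dyrk1a, a kinase dosage-sensitive in brain development, had 0.17, with HCCs from 0.08 to 0.41 and livers from 0.03 to 0.09, which overlapped. Runx1, a haematopoietic transcription factor, had 0.15, and its values of -0.26 in HCC 3151-1 and -0.18 in HCC 4033-2 lay among or below the livers. Sod1, the cytosolic superoxide dismutase, had 1 probe and a difference of 0.02, with HCCs from -0.29 to 0.23. Ets2, an ETS transcription factor, had 0.14, and Olig1, an oligodendrocyte transcription factor, had -0.02. Single probes thus spread far more than the chromosome mean.

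The second list held orthologues of the DiGeorge syndrome region, of which 34 of 39 were found with 62 probes. Their median difference was 0.22, with 58 probes higher in HCC and 19 (30.6%) with every HCC above every liver, where all Chr16 probes had 23.2% and the autosomal probes 5.3%. Slc25a1, the mitochondrial citrate carrier, had a difference of 0.30 with all 5 HCCs between 0.24 and 0.33 and the livers between -0.05 and 0.01. This evenness, with the tumours of mouse 4033 at 0.25 each, rests on 1 probe and on median centring. In HCC 4033-1 the mode lay 0.25 above the median, so with mode centring its value would fall to about that of the livers. Crkl, an adaptor of receptor kinase signalling, had 0.24, with the tumours of mouse 4033 at 0.02 and 0.01. Cdc45l (Cdc45), a helicase factor of replication, had 0.38, with liver 3760 at -0.36, liver 3151 at -0.03 and liver 4033 at -0.0009. Zdhhc8, a palmitoyltransferase, had -0.02.

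The hepatocyte list had 21 of 25 genes found with 39 probes, a median of 0.21 and 9 probes (23.1%) with every HCC above every liver, beside 23.2% on Chr16 and 5.3% on the autosomes. Thpo, the liver-derived hormone of platelet production, had the largest gene difference of the list at 0.54, but liver 3151 was at -1.04 on its forward array against 0.0040 swapped. Hrg, the histidine-rich glycoprotein of plasma, had 0.39, but liver 3151 was at -0.33 and HCC 4033-1, at -0.056, lay among the livers. Pros1, the anticoagulant protein S, had 0.28. Kng1 (kininogen) had 0.18, Ahsg (fetuin A) 0.20, Nr1i2 (the xenobiotic receptor PXR) 0.19 and Tfrc (the transferrin receptor) 0.19. Ahsg reached 0.60 in HCC 3151-1 and 0.57 in HCC 3760-2, and was at 0.04 to 0.08 in the other 3 HCCs, beside 0.04 to 0.11 in the livers.

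The growth and tumour genes were all found, 36 with 79 probes, with a median of 0.21 and 22 probes (27.8%) with every HCC above every liver, beside 23.2% on Chr16 and 5.3% on the autosomes. Socs1, an inhibitor of cytokine signalling, had 0.47 in both tumours of mouse 3151, 0.23 for HCC 3760-2, 0.08 for HCC 4033-2 and 0.06 for HCC 4033-1, and -0.02, -0.07 and -0.01 in the livers. The groups did not overlap with median centring. With mode centring, which lowers HCC 4033-1 by 0.25, that tumour would lie below every liver. Fgf12, of the fibroblast growth factor family, had a difference of 0.29, Gsk3b, a kinase of Wnt and insulin signalling, 0.27, and Crebbp, a histone acetyltransferase, 0.12. For Gsk3b, liver 3151 was at -0.25, and liver 3760, at 0.14, lay above both tumours of mouse 4033. Bcl6, a transcriptional repressor, had 0.02, with liver 3151 at 0.26 above all 5 HCCs.

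The replication, repair and mitosis genes had 20 of 22 found with 39 probes, a median of 0.22 and 12 probes (30.8%) with every HCC above every liver, beside 23.2% on Chr16 and 5.3% on the autosomes. Prkdc, the DNA-dependent protein kinase of end joining, had 0.59 for HCC 3151-1, 0.47 for HCC 3151-2, 0.32 for HCC 3760-2, and 0.08 and 0.03 for the tumours HCC 4033-2 and HCC 4033-1, against 0.08, 0.01 and 0.05 in the livers. HCC 4033-1 was thus among the livers, and HCC 4033-2 less than 0.01 above the highest of them. Donson, a replication fork protein, had a difference of 0.24, with all 5 HCCs between 0.16 and 0.36.

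Families whose copies can differ between mouse strains, such as olfactory receptors, stefins and keratin-associated proteins, had 46 probes, a median of 0.21 and 9 probes (19.6%) with every HCC above every liver, beside 23.2% on Chr16 and 5.3% on the autosomes. At some of these probes all tissues of mouse 4033 stood apart. Olfr207 was at 1.22 in both tumours of mouse 4033 and 0.90 in its liver, and at 0.04 to 0.41 in the other 5 tissues. Krtap16-1 was at 1.27 and 1.08 in the tumours of mouse 4033 and 0.98 in its liver, and at -0.10 to 0.54 in the others.

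**Figure D4:**
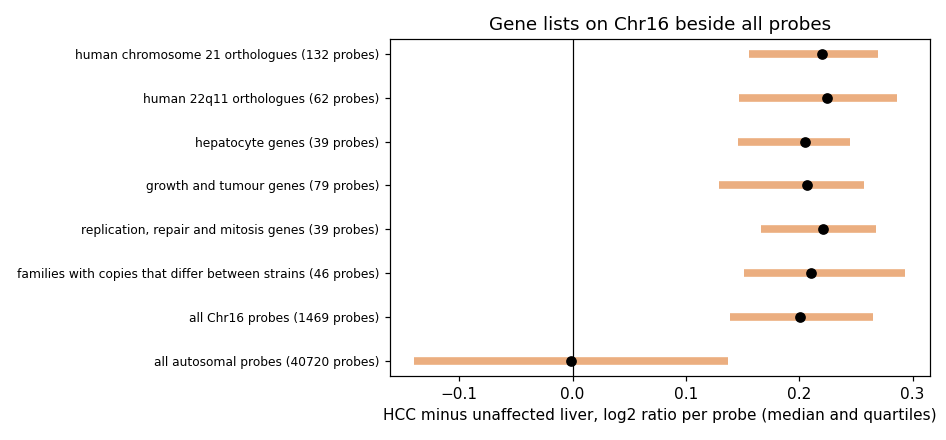
Differences of HCC minus unaffected liver in log2 ratio (x axis) for the Chr16 probes of the 6 gene lists, of all Chr16 probes and of all autosomal probes (y axis), with the median as a point and the lower to upper quartile as a bar. The medians of the lists lie between 0.21 and 0.22, beside 0.20 for all Chr16 probes and -0.0011 for all autosomal probes.

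At 14 Chr16 probes (0.953%) the livers differed among themselves by at least 1, against 1.21% of the autosomal probes. With liver 3151 from its dye-swap array alone the count was 19 (1.30%) against 1.61%. The 14 probes had a median GC content of 32.5%, and 6 of them were the oligos shown above. After subtraction of the Chr16 level, 56 of the 70 pairs of tumour and probe lay within 0.5 of the liver of the same mouse. The like share over other Chr16 probes, or against livers of other mice, is not given here. Closeness to the own liver is thus not shown to be particular to these probes or pairs. The means of the 5 neighbouring probes on each side were between -0.18 and 0.50 over the 14 probes and 8 tissues.

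In the tissues of mouse 4033 the oligo at 87543833 was at -2.96 in the liver, -1.24 in HCC 4033-2 and -2.52 in HCC 4033-1, and at -0.13 to 0.46 in the other 5 tissues. The oligo at 89187426 was at -1.83 in liver 4033 and -1.70 in both its tumours, and AK046212 at -1.94, -2.21 and -1.70. A2bp1 (Rbfox1), a splicing factor of neurons, and the oligo at 80025549 likewise had their lowest means in mouse 4033. At 2 of these probes the arrays of HCC 4033-2 disagreed, with -2.55 forward and 1.19 swapped at 80025549 and -2.27 and -0.20 at 87543833. AK161028, the oligo at 36310112 and the oligo at 45530236 were low in the livers of both mouse 3760 and mouse 4033. AK161028 was at -1.73 and -1.74 there and at 0.49 in liver 3151.

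Mx1, an interferon-induced antiviral GTPase, was lower in mouse 3151, with -0.75 in its liver and -0.093 and -0.10 in its tumours. It was at 0.66 and 0.65 in the livers of mice 3760 and 4033 and at 0.38 to 0.96 in their tumours. The other 5 of the 14 probes were low in liver 3151 and on its forward array. 1190017O12Rik was at -3.34 on that array and 0.059 on the dye swap, Olfr195 at -2.12 and 0.050, and Hunk, a kinase, at -1.69 and -0.067. The oligo at 39099975 was at -1.93 and 0.32. Senp7, a SUMO protease, was at -2.20 and -0.55. At these 5 probes the liver difference thus lay mostly on 1 array.

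**Figure D5:**
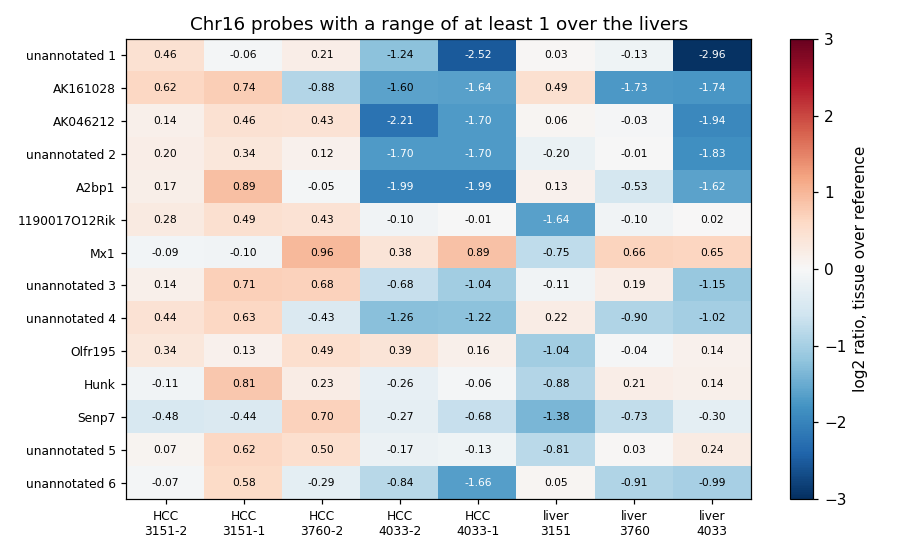
Heat map of the log2 ratio of tissue over reference (colour and printed value) for the 14 Chr16 probes at which the unaffected livers differed by at least 1 (rows) in the 8 tissues (columns), where unannotated 1 to 6 are the oligos starting at 87543833, 89187426, 80025549, 36310112, 39099975 and 45530236. After subtraction of the Chr16 level, 56 of the 70 pairs of tumour and probe were within 0.5 of the liver of the same mouse.

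The 10 Chr16 probes with the largest difference between HCC and liver were led by 1190017O12Rik (0.79), Dnase1 (0.75), Cpn2 (0.70), Nat13 (0.64) and Snx29 (0.63). Liver 3151 was at -3.34 to -1.04 on its forward array at 9 of the 10, the exception being Snx29. With its dye-swap array alone the 10 differences were 0.23 to 0.65, and none was called in either setting. Dnase1, a secreted nuclease, kept a difference of 0.50 and Snx29, a sorting nexin, one of 0.65. Snx29 was at 1.76 in HCC 3760-2, on its only array, and at -0.17 to 0.44 in the other HCCs.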

How the data were processed

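DNA of 8 tissues was hybridised against a reference on 15 Agilent 2-colour 44K arrays. The authors' scanner files, from Feature Extraction 9.1.3.1, hold processed red and green intensity values, deposited after background subtraction, detrending and dye normalisation per the file headers. The deposited log10 ratios equalled the scanner's own red over green log ratio within 1e-05, with the sign turned on dye swaps, and were used as a check. That log ratio lay within 0.001 of the log10 ratio of the processed intensities at 99.4% of spots and differed by up to 0.703 at the others. Log2 ratios of tissue over reference were taken from the processed intensities, control and outlier-marked spots were left out, replicate spots were averaged per probe, and the autosomal median was subtracted from each array with no loess. Dye orientations were averaged to 1 value per tissue. Levels were tested with limma 3.58.1 in R 4.3.3, two-sided, with Benjamini-Hochberg adjustment over all autosomes, windows or probes, and by exact permutation of tissues. Segmentation split a chromosome where the mean changed, with a penalty factor of 3 and at least 5 probes. Scripts ran in Python 3.11.15 and were tested on simulated data. The probes named are members of 6 lists, the 10 with the largest group difference, the 10 with the largest range over livers, and those at breakpoints. The members and lists were chosen with earlier results of these data known. Tissues with the same mouse deviated together (r from 0.126 to 0.288 in the 5 pairs, against -0.206 to 0.087 in the 10 pairs of different mice). The number of arrays limits the precision. Some listed genes are not reported here.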

Additional observations from a re-analysis of the deposited data

Results flagged for a closer look

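Of 239 Chr16 measures, each with 5 HCC values and among them 197 listed genes, 4 had 1 tumour far from the other 4, where chance marks about 1 in 20. Ifnar1 was at 0.44 in HCC 3151-2 and between 0.16 and 0.20 in the others, a gap of 0.853 of the whole range. Psmg1, a proteasome assembly chaperone, was at 1.24 in HCC 3151-1 and at most 0.36 in the others, a gap of 0.712. Prodh, proline dehydrogenase, was at 0.50 in HCC 3760-2 and at most 0.10 in the others, a gap of 0.796. Lpp was at 0.41 in HCC 3151-1 and between 0.13 and 0.19 in the others, a gap of 0.807. The cause was not tested.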

How the results depend on the processing

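The difference in Chr16 level kept its direction and was not called under any of 15 alternatives, at 0.136 to 0.214 (adjusted p from 0.204 to 0.639), and lay between 0.158 and 0.247 without any 1 tissue (adjusted p from 0.144 to 0.746). With the mouse as a replicate block it was 0.21 (limma, adjusted p = 0.513), and the block changed no other call. With slide as a block it was 0.14 (adjusted p = 0.427) and with scan day 0.20 (adjusted p = 0.372). No alternative called a Chr16 probe or window. The count of HCCs at 0.3 or above, 1, was 2 with normexp, with centring on all probes and with centring on the mode, 3 at a threshold of 0.2, 0 at 0.5, and 0 to 1 when leaving out 1 tissue, being 0 without HCC 3151-1. Chr16 minus Chr18 ran from -0.145 to 0.0073 when leaving out 1 tissue, reversing without HCC 4033-2. Distal minus proximal was -0.0028 with the boundary at the middle probe and 0.0024 to 0.0123 when leaving out 1 tissue. The 33 breakpoints became 51 with a penalty of 2, 9 on the forward arrays alone, 14 with normexp and 9 without the probes variable between livers. The causes were not tested. Regressing out GC content, leaving out the variable probes and using the dye swap alone of liver 3151 were chosen after seeing the data.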

Other observations

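Split by GC content into 3 sets of like size, the Chr16 probes had mean differences of HCC minus liver of 0.222 in the set lowest in GC, 0.205 in the middle set and 0.186 in the highest.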
